A study of Mus musculus with 4 samples.

Results

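The constitutive proteasome genes of tumor associated macrophages (TAMs) were taken from the count matrix by symbol. Gene identifiers, with the version removed, were matched to GENCODE release M21, and protein-coding genes were kept whose symbol begins with Psm, one of the letters a to g and a digit. The inducible catalytic genes Psmb8, Psmb9 and Psmb10 and 4 pseudogenes were dropped, which left 47 of the 54146 genes listed. They comprise the 14 genes of the 20S core, 17 genes of the 19S cap and 16 others. The cap genes Sem1 and Adrm1 have no such symbol, are given among the partner genes and are left out of all counts of the cap. The others are the tissue-restricted 20S genes Psma8 and Psmb11, 3 assembly chaperones of the 19S cap, 4 assembly chaperones of the 20S core, 5 activator genes, the 20S inhibitor gene Psmf1 and Psmc3ip. The last encodes a factor of meiotic recombination and no part of the proteasome, and it was kept only because the symbol matched.

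The tumors were MCA205 fibrosarcomas grown under the skin of the right flank, from which CD45+ cells were enriched and live CD11b+F4/80+ TAMs sorted. The hosts were female mice of 8 to 16 weeks, and the labels do not give their strain. The control group (labelled vehicle) had 2 libraries, and the propranolol group had 2 libraries from mice that drank water with propranolol, a nonselective beta blocker, at 0.5 g/L from the day of inoculation. Poly-adenylated RNA was sequenced from samples with an RNA integrity number above 7.5. The study describes 2 biological replicates per group, and the labels do not say whether a library is 1 mouse or a pool, so p-values measure the spread between these libraries. The deposited counts added up to 13798249 and 23018142 in control replicates 1 and 2 and to 39818103 and 16424081 in propranolol replicates 1 and 2. The 47 genes took 0.439% and 0.426% of all control counts and 0.477% and 0.412% of all propranolol counts. In a sorted population, fewer cells of a type and less RNA per cell cannot be told apart.

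The proteasome is the main protease of the cytosol and the nucleus. Its 20S core is a barrel of stacked rings, in which outer α rings gate the entry and inner β rings carry the catalytic sites, and its 19S cap binds ubiquitin-tagged proteins, unfolds them with a ring of ATPases and feeds them into the core. In macrophages it supplies peptides for MHC class I and degrades the inhibitors of NF-κB, and interferon-γ exchanges the constitutive catalytic subunits for inducible ones.

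Of the 47 genes, 46 had enough counts for a test. Psmb11, which encodes a catalytic subunit of thymic epithelium, had 4 counts, all in propranolol replicate 1. Psma8, the testis form of an α subunit, was tested at 40 and 52 control counts and 49 and 9 propranolol counts (log2 fold change -1.21, standard error 0.50, edgeR adjusted p = 0.0760), and its fitted log2 fold change was -1.99 when propranolol replicate 1 was left out and -0.78 when replicate 2 was. The quasi-likelihood test of edgeR was run on all 14688 tested genes, with p-values adjusted after Benjamini and Hochberg. A gene passed at an adjusted p under 0.05 and was called changed when the difference was also more than 1.5-fold. All log2 fold changes are propranolol over control, and CPM are counts relative to library sizes scaled by TMM factors.

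More proteasome genes were higher than lower in TAMs from propranolol treated mice, and their log2 fold changes rose with the GC content of their transcripts. After propranolol, 11 of the 46 tested genes were changed upward, where 12.2% of all tested genes were, and 2 were changed downward, where 15.6% of all were. At any size of change, 15 passed upward, against a background of 21.8%, and 4 passed downward, against 20.4%. The shares changed upward were thus above the background and those changed downward below it. At any size the same held, with a smaller ratio to the background for the share passed upward. In 22 genes both propranolol libraries lay above both control libraries (35.8% of all tested genes), in 8 they lay below (36.9%), and in 16 the groups overlapped. The median log2 fold change was 0.20 over the 46 genes and -0.019 over all tested genes. The 11 changed upward were the 20S core genes Psmb3 and Psmb6, the 19S cap genes Psmc4, Psmc5, Psmd2, Psmd3, Psmd4 and Psmd13, and the assembly chaperone genes Psmd9, Psmg3 and Psmg4. The 2 changed downward were Psmc6, an ATPase of the cap, and Psme4, an activator. Psmc6 was changed downward with any 1 library left out (-1.29 to -0.73), and Psme4 in all such fits but that without propranolol replicate 2. Neither passed downward once the trend with GC content was removed (0.25 and -0.26). The number of genes changed downward moved with the libraries. With propranolol replicate 1 left out 6 were changed downward (15% of all tested genes), with propranolol replicate 2 left out 1 (11%), and with control replicate 2 left out 4 (14.9%). Leaving out propranolol replicate 2 gave 24 that passed upward (19.8% of all) and 2 downward (14.7%), and leaving out replicate 1 gave 11 downward (18.8%). The propranolol libraries differed in this respect, since 45 of the 46 genes had a lower CPM in propranolol replicate 2 than in replicate 1, as did 54.9% of all tested genes. In the control group 35 of the 46 were lower in replicate 2.

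**Figure D1:**
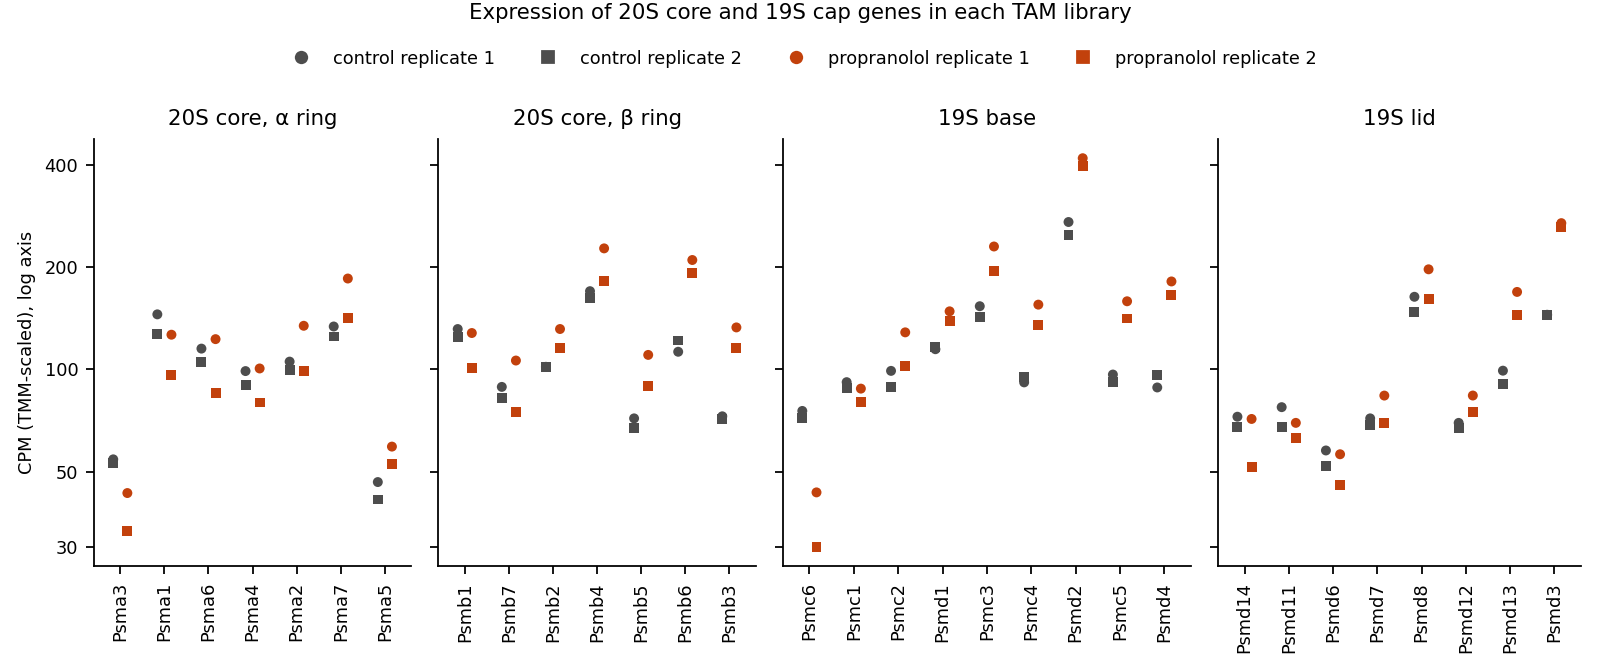
CPM, on a log axis, of the 14 genes of the 20S core and the 17 genes of the 19S cap in each of the 4 libraries, ordered within each ring or subcomplex by log2 fold change. Grey points are control and orange points propranolol libraries, with circles for replicate 1 and squares for replicate 2. Both propranolol libraries sit above both control libraries for 17 of the 31 genes (35.8% of all tested genes). They sit below for 4 (36.9%), among them Psmc6 and Psma3.

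In the counts as deposited, the 3 constitutive catalytic genes of the β ring had log2 fold changes from 0.087 to 0.78. The differences between these genes were not tested. Psmb6, the caspase-like subunit (ENSMUSG00000018286.6, chromosome 11, 70525367 to 70527858 of GRCm38), had 113 and 122 CPM in control replicates 1 and 2 and 209.8 and 192 CPM in propranolol replicates 1 and 2. It rose 1.71-fold (log2 fold change 0.78, standard error 0.10, edgeR adjusted p = 0.000360), and the groups did not overlap. Psmb5, the chymotrypsin-like subunit and the target of proteasome inhibitors used in myeloma (ENSMUSG00000022193.7, chromosome 14, 54614119 to 54618022), had 71.8 and 67.4 CPM in the control and 110.4 and 89.5 CPM in the propranolol libraries. It passed with a smaller difference of 1.44-fold (log2 fold change 0.53, standard error 0.12, edgeR adjusted p = 0.00672), but not once the trend with GC content was removed (0.20, edgeR adjusted p = 0.296). Psmb7, the trypsin-like subunit (ENSMUSG00000026750.6, chromosome 2, 38588036 to 38644087), had 88.9 and 82.7 CPM in the control and 106 and 75.1 CPM in the propranolol libraries. Its groups overlapped and it did not pass (log2 fold change 0.087, standard error 0.15, edgeR adjusted p = 0.675). Psmb7 had -0.19 when propranolol replicate 1 was left out and 0.34, which passed, when replicate 2 was (edgeR adjusted p = 0.0344). With the trend with GC content removed, Psmb7 was changed upward (0.86, edgeR adjusted p = 0.00215), above the 0.66 of Psmb6 in that fit. Of the exonic length of Psmb7, 11.8% is shared with Nek6 on the opposite strand. The methods name no strand option, so reads of the shared bases cannot be assigned to either gene.

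The other β ring genes are structural. Psmb3 (ENSMUSG00000069744.7, chromosome 11, 97703399 to 97713500) had 72.8 and 71.7 CPM in the control and 133 and 115 CPM in the propranolol libraries, the highest log2 fold change of the ring (log2 fold change 0.78, standard error 0.11, edgeR adjusted p = 0.000481). At the other end, Psmb1 had 131 and 125 CPM in the control and 128 and 101 CPM in the propranolol libraries (log2 fold change -0.16, standard error 0.12, edgeR adjusted p = 0.330), with a log2 fold change of 0.031 without propranolol replicate 2 and of -0.34 when only replicate 1 was left out, where it passed (edgeR adjusted p = 0.0369). Psmb2 and Psmb4 had log2 fold changes of 0.28 and 0.30 and did not pass by edgeR, while Psmb4 passed by DESeq2 (log2 fold change 0.30, adjusted p = 0.0486). The median over the 7 β ring genes was 0.30, and 6 of them had a positive log2 fold change, as had 7191 of all 14688 tested genes.

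In the α ring, which gates the barrel, 0 of 7 genes were changed by edgeR or by DESeq2 in the counts as deposited. Of all tested genes, 12.2% were changed upward and 15.6% downward by edgeR. By edgeR 1 passed upward (21.8% of all tested genes) and 1 downward (20.4%), and at an unadjusted p under 0.05 there were 2 upward and 1 downward. Psma5 had 46.7 and 41.5 CPM in the control and 59.3 and 52.7 CPM in the propranolol libraries, and passed upward (log2 fold change 0.35, standard error 0.12, edgeR adjusted p = 0.0403). Psma3 had 54.4 and 53.1 CPM in the control and 43.3 and 33.4 CPM in the propranolol libraries, and passed downward (log2 fold change -0.48, standard error 0.14, edgeR adjusted p = 0.0194). For both genes the groups did not overlap, and both calls were lost when some libraries were left out. Once the trend with GC content was removed, the log2 fold change of Psma3 turned to 0.29, which did not pass. Psma5 did not pass by DESeq2 (adjusted p = 0.0512) or with upper-quartile factors (edgeR adjusted p = 0.0703), while Psma7 passed by DESeq2 (log2 fold change 0.34, adjusted p = 0.0378). Psma5 did not pass without control replicate 2 or propranolol replicate 1 (log2 fold changes 0.28 and 0.26). Psma3 did not pass without control replicate 1 or propranolol replicate 2 (-0.41 and -0.28). The remaining 5 α genes, Psma1, Psma2, Psma4, Psma6 and Psma7, had log2 fold changes from -0.28 to 0.34 and did not pass by edgeR in the counts as deposited. Once the trend with GC content was removed, Psma2 was changed upward (1.13, edgeR adjusted p = 0.000491), and 2 of the 7 α genes passed upward (17.5% of all tested genes). The median over the α ring was -0.058, but 0.29 once the trend with GC content was removed, where the β ring had a median of 0.20.

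The base of the 19S cap holds 6 ATPases, which unfold substrates, and the scaffold and ubiquitin-binding subunits. Of its 9 genes 4 were changed upward (12.2% of all tested genes) and 1 downward (15.6%). In 7 both propranolol libraries lay above both control libraries (35.8% of all tested genes), and in 2 they lay below (36.9%). Psmd4, which encodes a ubiquitin receptor (ENSMUSG00000005625.15, chromosome 3, 95032694 to 95042614), had 88.5 and 96.3 CPM in the control and 181 and 165 CPM in the propranolol libraries. This was the highest log2 fold change of the base, 1.88-fold (log2 fold change 0.91, standard error 0.10, edgeR adjusted p = 0.000208). Psmd2, a large scaffold subunit that docks ubiquitin-like proteins (ENSMUSG00000006998.16), had 271 and 248 CPM in the control and 418 and 397 CPM in the propranolol libraries (log2 fold change 0.65, standard error 0.10, edgeR adjusted p = 0.000672). Its partner scaffold gene Psmd1 passed with a smaller difference, from 115 and 116 CPM in the control to 148 and 138 CPM in the propranolol libraries (log2 fold change 0.31, standard error 0.10, edgeR adjusted p = 0.0270), and did not pass in 3 of the 4 fits that left out a library, with log2 fold changes of 0.36, 0.34 and 0.26 without control replicate 1, control replicate 2 and propranolol replicate 1.

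Of the 6 ATPase genes, whose products form a single ring, 3 passed upward (21.8% of all tested genes) and 1 downward (20.4%). Psmc5 (ENSMUSG00000020708.12) had 96.6 and 91.8 CPM in the control and 159 and 141 CPM in the propranolol libraries (log2 fold change 0.67, standard error 0.10, edgeR adjusted p = 0.000841). Psmc4 (ENSMUSG00000030603.16) had 91.6 and 94.9 CPM in the control and 155 and 135 CPM in the propranolol libraries (log2 fold change 0.64, standard error 0.11, edgeR adjusted p = 0.00119), and without propranolol replicate 1 its log2 fold change of 0.54 was under 1.5-fold. Psmc3 passed under 1.5-fold, with 153 and 143 CPM in the control and 229.9 and 194 CPM in the propranolol libraries (log2 fold change 0.52, standard error 0.11, edgeR adjusted p = 0.00425), and shares 8.25% of its exonic length with Slc39a13 on the opposite strand. In contrast, Psmc6 (ENSMUSG00000021832.8, chromosome 14, 45329788 to 45349705) had 75.5 and 72.1 CPM in the control and 43.5 and 30.1 CPM in the propranolol libraries. It fell 1.99-fold (log2 fold change -0.99, standard error 0.16, edgeR adjusted p = 0.00100), the largest fall among the 31 core and cap genes, but had a log2 fold change of 0.25 once the trend with GC content was removed. In the counts as deposited Psmc2 and Psmc1 had log2 fold changes of 0.30 and -0.10 and did not pass. Psmc2 passed without control replicate 1 (0.44) and without propranolol replicate 2 (0.49). Once the trend with GC content was removed, Psmc2 was changed upward (1.03, edgeR adjusted p = 0.000491) and Psmc3 did not pass (0.23, edgeR adjusted p = 0.190).

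The lid of the cap removes ubiquitin chains. Of its 8 genes taken by symbol, which leave out Sem1, 2 were changed upward and 0 downward by edgeR (0 downward at an unadjusted p under 0.05, and 0 changed downward by DESeq2). The shares of all tested genes changed by edgeR were 12.2% upward and 15.6% downward. Psmd3 (ENSMUSG00000017221.14, chromosome 11, 98682554 to 98695979) had 145 and 145 CPM in the control and 269 and 262 CPM in the propranolol libraries, a rise of 1.83-fold (log2 fold change 0.88, standard error 0.09, edgeR adjusted p = 0.000164). Psmd13 (ENSMUSG00000025487.15) had 99.2 and 90.7 CPM in the control and 169 and 145 CPM in the propranolol libraries (log2 fold change 0.73, standard error 0.11, edgeR adjusted p = 0.000793), and shares 10.1% of its exonic length with Sirt3 on the opposite strand. Both are structural subunits of the lid. Psmd14, the deubiquitinase of the lid, had 72.6 and 67.6 CPM in the control and 71.5 and 51.7 CPM in the propranolol libraries, with overlapping groups (log2 fold change -0.18, standard error 0.15, edgeR adjusted p = 0.366). It had the lowest log2 fold change of the lid, which was 0.062 without propranolol replicate 2 and -0.44 when replicate 1 was left out instead, where it passed (edgeR adjusted p = 0.0150). The other 5 lid genes had log2 fold changes from -0.13 (Psmd11) to 0.22 (Psmd12), and none passed in the counts as deposited. Once the trend with GC content was removed, Psmd11 was changed upward (0.75, edgeR adjusted p = 0.00156) and Psmd12 passed upward (0.38, edgeR adjusted p = 0.0247). In that fit Psmd14 had 0.35 and did not pass, and Psmd3 and Psmd13 passed under 1.5-fold (0.57 and 0.50).

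Core and cap were set side by side by their medians, without a test. The median log2 fold change was 0.23 over the 14 genes of the 20S core, with 2 changed upward and 0 downward by edgeR (1 downward at an unadjusted p under 0.05, and 0 changed downward by DESeq2), and 0.30 over the 17 genes of the 19S cap, with 6 changed upward and 1 downward. Of all tested genes, 12.2% were changed upward and 15.6% downward by edgeR. The core median minus the cap median was -0.070, against 0.020 without propranolol replicate 2 and -0.23 once the trend with GC content was removed. Single genes ran from -0.48 to 0.78 in the core and from -0.99 to 0.91 in the cap. Within the cap, the base had a median of 0.52 and the lid one of 0.17, against 0.54 and 0.36 once the trend with GC content was removed. Leaving out propranolol replicate 1 gave a median of 0.14 for the cap and 0.040 for the core, and leaving out replicate 2 gave 0.41 for the core.

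Levels of different genes were compared per length, as TPM, counts per exonic length scaled to the same sum in each library, from the total length of all annotated exons. The summed TPM of the 20S core was 2304 and 2255 in control replicates 1 and 2. It was 2525 and 2131 in propranolol replicates 1 and 2, so that the groups overlapped on this scale. That of the 19S cap was 1972 and 1931 in TAMs of control mice and 2317 and 2116 after propranolol, and did not overlap. Unlike CPM, TPM were not scaled by TMM factors, and overlap of the sums on the CPM scale was not examined. Psmd12, for example, had a mean of 85.7 TPM in control and 84.3 TPM in propranolol libraries, but a log2 fold change of 0.22. The ratio of both sums within a library does not depend on these factors. The ratio of the core sum to the cap sum was 1.17 in each control library, 1.09 in propranolol replicate 1 and 1.01 in propranolol replicate 2. With the length of the longest protein-coding transcript in place of all exons, the ratios were 1.32, 1.33, 1.25 and 1.16 in the same order, again lower after propranolol without overlap. The smallest p that exact permutation of 2 libraries against 2 can give is 0.333, and no p is given for this ratio.

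**Figure D2:**
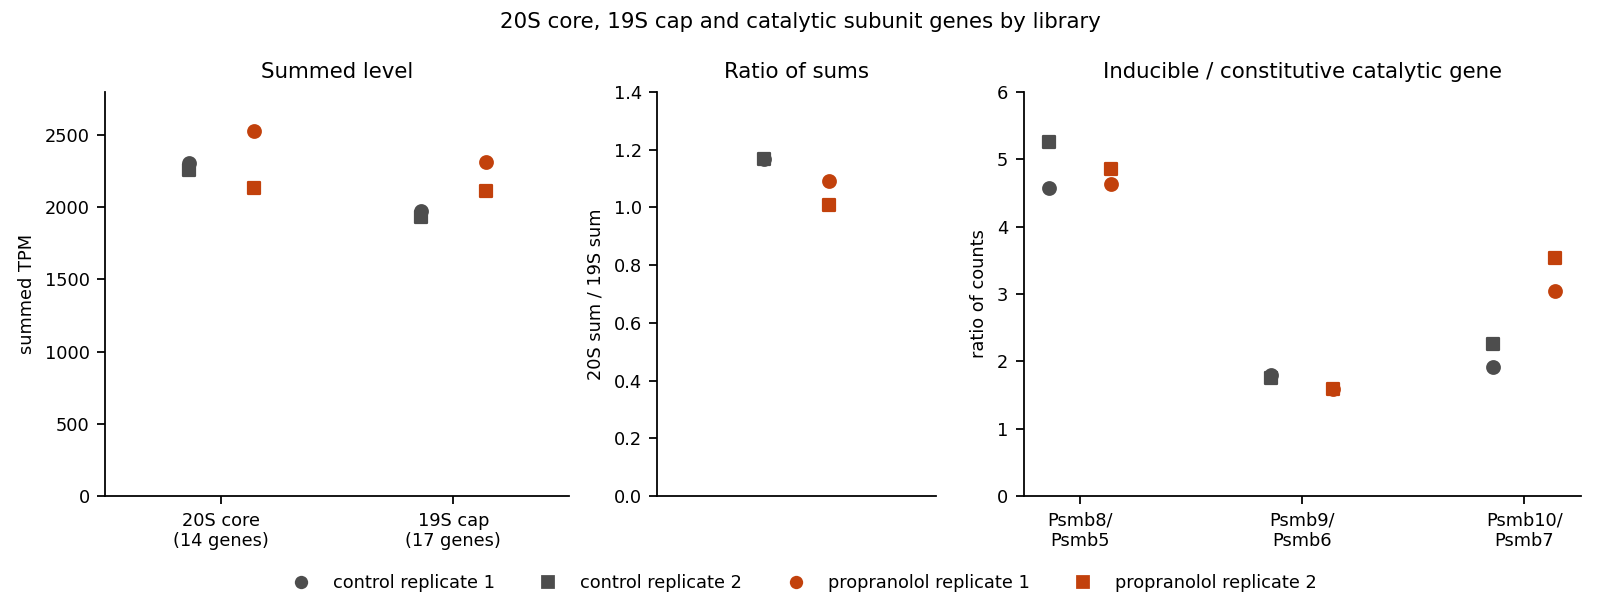
Left, summed TPM of the 20S core and 19S cap genes. Middle, the ratio of both sums. Right, the ratio of counts of each inducible catalytic gene to its constitutive counterpart. Points are the 4 libraries, with the control in grey and propranolol in orange, and all axes start at 0. The core to cap ratio is 1.17 in both control libraries, whose points coincide, 1.09 in propranolol replicate 1 and 1.01 in replicate 2.

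The subunits of each complex are built in at equal number, but their transcripts spanned a wide range of levels. On the scale of all exons, the mean TPM in control libraries ran from 37.8 for Psmd11 to 297 for Psma6. The order depended on the length used, but under both lengths Psmb2 and Psmb4 were among the 3 highest of the 31 in control libraries. Psmb2 had 281 and Psmb4 283 TPM on all exons, and 286 and 338 TPM on the longest coding transcript. Under both lengths Psma3 and Psmd11 were the lowest 2 in control libraries, with 45.8 and 37.8 TPM on all exons. In propranolol libraries Psma3, Psmc6 and Psmd11 were the lowest 3 under both lengths, with 27.7, 29.5 and 29.2 TPM on all exons.

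Proteasome assembly factors included some of the largest rises and the smallest counts. Psmg4, a chaperone of α ring assembly (ENSMUSG00000071451.10), had 17.3 and 16.4 CPM in the control and 31.4 and 35.0 CPM in the propranolol libraries, a rise of 1.97-fold (log2 fold change 0.98, standard error 0.14, edgeR adjusted p = 0.000508), the highest log2 fold change of the 46 genes. Its partner gene Psmg3 (ENSMUSG00000029551.13) had 9.17 and 10.7 CPM in the control and 19.6 and 17.3 CPM in the propranolol libraries (log2 fold change 0.89, standard error 0.18, edgeR adjusted p = 0.00285). The products of Psmg1 and Psmg2 form the other chaperone pair of the α ring. Psmg2 had 16.2 and 13.5 CPM in the control and 11.6 and 8.84 CPM in the propranolol libraries, without overlap, but did not pass (log2 fold change -0.52, standard error 0.20, edgeR adjusted p = 0.0605). Psmg2 passed without control replicate 2 (-0.63) and without propranolol replicate 1 (-0.74), and had -0.33 without control replicate 1 and -0.32 without propranolol replicate 2. Psmg1 had a log2 fold change of 0.093 and did not pass. Among the chaperones that assemble the ATPase ring, Psmd9 had 25.8 and 25.5 CPM in the control and 41.1 and 37.1 CPM in the propranolol libraries (log2 fold change 0.61, standard error 0.13, edgeR adjusted p = 0.00361), with 0.53, under 1.5-fold, without propranolol replicate 1. Psmd9 shares 25.5% of its exonic length with Gm26745 on the opposite strand, which had at most 1 count in any library. Psmd10, known as the oncoprotein gankyrin, had 28.9 and 23.0 CPM in the control and 28.4 and 20.3 CPM in the propranolol libraries (log2 fold change -0.072, standard error 0.18, edgeR adjusted p = 0.783). Its log2 fold change was 0.15 without control replicate 1 and 0.17 without propranolol replicate 2. Once the trend with GC content was removed, Psmd10 passed upward (0.54, edgeR adjusted p = 0.0411). In the counts as deposited Psmd5 had a log2 fold change of -0.011. Pomp, the maturation factor of the β ring, which the symbol rule does not take, had 129.5 and 118 CPM in the control and 103 and 77.1 CPM in the propranolol libraries and passed downward (log2 fold change -0.45, standard error 0.14, edgeR adjusted p = 0.0245). It did not pass without control replicate 1 (-0.33) or propranolol replicate 2 (-0.23) and had -0.68 without propranolol replicate 1, and it did not pass once the trend with GC content was removed (-0.39, edgeR adjusted p = 0.0670).

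The activators open the core in place of the 19S cap. Psme1 and Psme2 encode the interferon-induced activator of antigen processing, Psme3 a nuclear activator and Psme4 the activator PA200 of the nucleus. Psme4 (ENSMUSG00000040850.17, chromosome 11, 30771726 to 30880361) had 102 and 102 CPM in the control and 66.9 and 56.3 CPM in the propranolol libraries. It fell 1.66-fold (log2 fold change -0.73, standard error 0.11, edgeR adjusted p = 0.000881), and its log2 fold change was -0.58, under 1.5-fold, without propranolol replicate 2. It did not pass once the trend with GC content was removed (-0.26, edgeR adjusted p = 0.0946). Psme1, with the highest TPM of the activators, had 234 and 239 CPM in the control and 282 and 249 CPM in the propranolol libraries and did not pass (log2 fold change 0.17, standard error 0.10, edgeR adjusted p = 0.211). Psme2 and Psme3 had log2 fold changes of -0.13 and -0.092 and did not pass, and without propranolol replicate 2 they had 0.089 and 0.036. Psme2b passed downward (log2 fold change -0.58, standard error 0.17, edgeR adjusted p = 0.0201), with -0.87 when propranolol replicate 1 was left out and -0.33, which did not pass, when replicate 2 was. It is an intronless copy of Psme2 and the mapping filter removes reads that fit both, so its value is uncertain. Psmf1, the gene of the 20S inhibitor PI31, had 30.4 and 32.3 CPM in the control and 40.3 and 32.9 CPM in the propranolol libraries, and did not pass (log2 fold change 0.23, standard error 0.14, edgeR adjusted p = 0.210) except without propranolol replicate 2 (0.39). Psmc3ip had a log2 fold change of 0.29 and did not pass, and shares 21.2% of its exonic length with Mlx on the opposite strand.

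The inducible catalytic genes were compared with the constitutive genes whose products they replace. Psmb8, the counterpart of Psmb5, had 329 and 354 CPM in the control and 511 and 435 CPM in the propranolol libraries (log2 fold change 0.47, standard error 0.11, edgeR adjusted p = 0.00575). Psmb9, the counterpart of Psmb6, had 202 and 213 CPM in the control and 333 and 305 CPM in the propranolol libraries (log2 fold change 0.62, standard error 0.10, edgeR adjusted p = 0.000913). Psmb10, the counterpart of Psmb7, had 171 and 187 CPM in the control and 323 and 266 CPM in the propranolol libraries (log2 fold change 0.72, standard error 0.12, edgeR adjusted p = 0.000996). All 3 passed upward in the counts as deposited (21.8% of all tested genes), the last 2 by more than 1.5-fold (12.2%), but both were under it without propranolol replicate 1 (0.56 and 0.57). After the trend with GC content was removed, Psmb8 did not pass (0.30, edgeR adjusted p = 0.0722), and Psmb9 and Psmb10 passed under 1.5-fold (0.36 and 0.40). The ratio of counts of Psmb8 to Psmb5 was 4.58 and 5.25 in TAMs of control mice and 4.63 and 4.86 after propranolol, with overlap. For Psmb9 to Psmb6 it was 1.79 and 1.75 in TAMs of control mice and 1.59 in both libraries after propranolol, which was lower. For Psmb10 to Psmb7 it was 1.92 and 2.26 in TAMs of control mice and 3.04 and 3.54 after propranolol, which was higher. This last direction turned once the trend with GC content was removed, since Psmb7 then had a log2 fold change of 0.86 and Psmb10 one of 0.40. In the counts as deposited the summed TPM of the inducible over the constitutive genes was 1.52, 1.66, 1.62 and 1.64 in control replicates 1 and 2 and propranolol replicates 1 and 2, with overlap.

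The log2 fold changes of the proteasome genes followed the GC content of their transcripts. Across the 46 tested genes the rank correlation with the GC content of the longest transcript was 0.642, across the 31 core and cap genes it was 0.726, and across 14681 tested genes it was 0.577. Genes are not independent replicates, all points share the same 4 libraries, and no test was made. Of the 19 genes with more than 50% GC, 10 were changed upward and 0 downward by edgeR (0 downward at an unadjusted p under 0.05, and 0 changed downward by DESeq2), with a median of 0.61. Of the 15 genes from over 45% to 50% GC, 1 (Psmb3) was changed upward and 0 downward by edgeR (2 downward at an unadjusted p under 0.05, and 0 changed downward by DESeq2), with a median of -0.011. Of the 12 genes of 45% GC or less, 0 were changed upward by edgeR (1 upward at an unadjusted p under 0.05, and 0 changed upward by DESeq2) and 2 downward, Psmc6 (37.0% GC) and Psme4 (43.9%), with a median of -0.15. Of all tested genes in the same 3 classes, from highest to lowest GC, 22.6%, 4.63% and 0.863% were changed upward and 4.21%, 10.1% and 41.9% downward, with medians of 0.35, -0.11 and -0.65. Both proteasome genes changed downward were in the class of lowest GC, and 10 of the 11 changed upward in the class of highest GC.

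**Figure D3:**
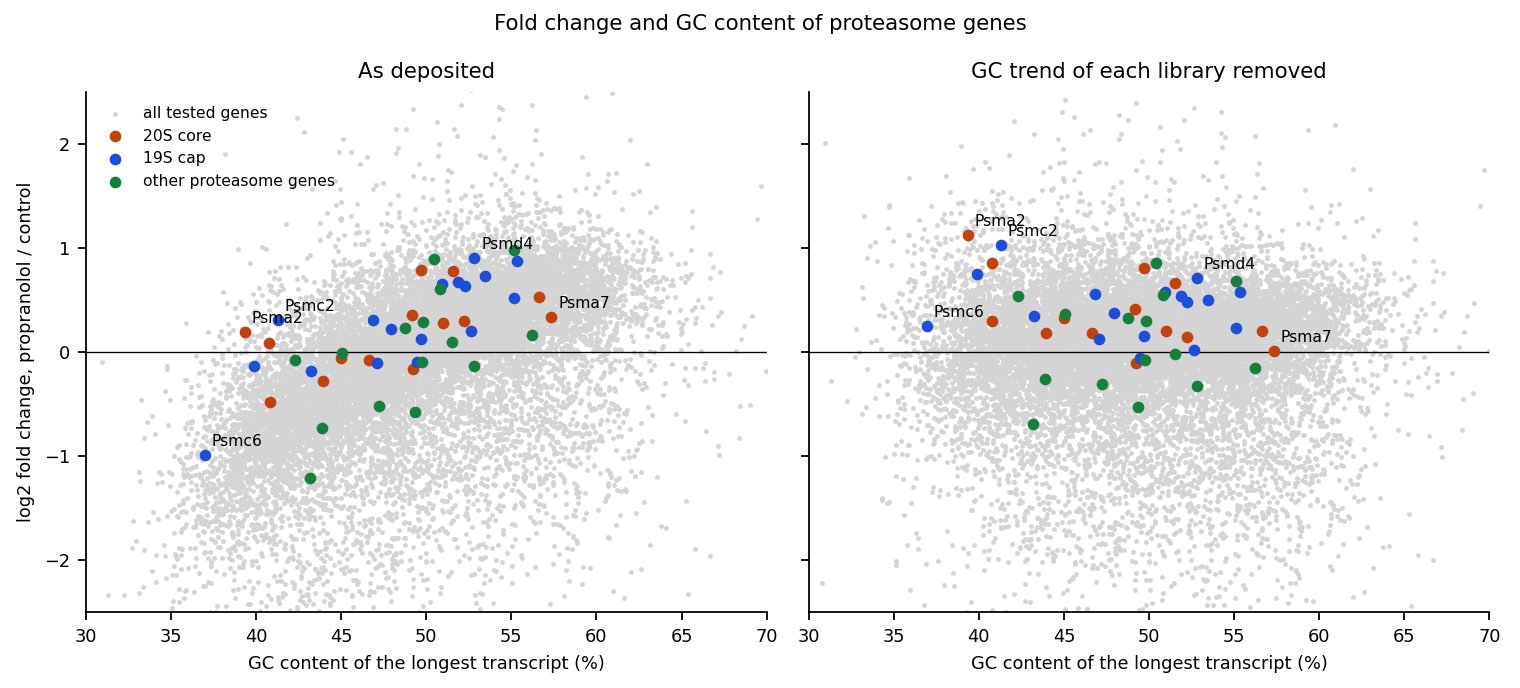
log2 fold change against the GC content (%) of the longest transcript, for all tested genes (light grey) and for the genes of the 20S core (orange), the 19S cap (blue) and the other proteasome genes (green). The left panel shows the counts as deposited and the right panel the same test with this trend removed from each library. Genes outside the plotted range are not drawn. On the left Psmc6 lies at -0.99 and Psma2 at 0.19, and on the right at 0.25 and 1.13.

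The test was repeated with the counts of each library freed of a smooth dependence on GC content. This moved the median of all tested genes from -0.019 to 0.087 and that of the 46 proteasome genes from 0.20 to 0.31. The rank correlation with GC content was then -0.127 across the 46 genes, -0.251 across the 31 core and cap genes and 0.053 across 14681 tested genes. Of the 46 genes 19 then passed upward, where 17.5% of all tested genes did, and 1 (Psme2b) passed downward, where 6.55% did. By more than 1.5-fold, 9 were changed upward, against a background of 7.64%, and 0 downward, against 4.99% (edgeR, with 3 downward at an unadjusted p under 0.05; DESeq2 was not run in this form). In this fit the shares of proteasome genes that passed or were changed upward were above the background, and the core median was 0.25 against 0.48 for the cap.

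Of the 13 genes changed in the counts as deposited, 5 were also changed after the trend was removed, all upward. They were Psmb3 (0.80), Psmb6 (0.66), Psmd4 (0.71), Psmg3 (0.86) and Psmg4 (0.68). Another 6, Psmc4, Psmc5, Psmd2, Psmd3, Psmd9 and Psmd13, passed upward with log2 fold changes of 0.48, 0.54, 0.576, 0.57, 0.55 and 0.50, all under the 0.585 of a 1.5-fold change. Neither fall passed, since Psmc6 had 0.25 (edgeR adjusted p = 0.216) and Psme4 -0.26. Psma2 had 1.13 (edgeR adjusted p = 0.000491), Psmc2 1.03 (0.000491), Psmb7 0.86 (0.00215) and Psmd11 0.75 (0.00156), and all 4 were changed upward here but not in the counts as deposited. In the same order their GC contents were low, at 39.4%, 41.3%, 40.8% and 39.9%. Psmb5 and Psmc3 (0.23) did not pass after the removal. The α ring genes Psma3 and Psma1 then had positive log2 fold changes of 0.29 and 0.18 and did not pass, and Psma7 had 0.009. After the removal, all 6 ATPase genes except Psmc1 (-0.056) had positive log2 fold changes. Psmd10 (0.54, edgeR adjusted p = 0.0411) and Psmd12 (0.38, edgeR adjusted p = 0.0247), which had not passed, then passed upward. The sign also turned for Psma4 (0.32), Psma6 (0.18), Psmd6 (0.12), Psmd5 (0.36), Psmd14 (0.35), Psme1 (-0.15) and Psmg1 (-0.021), none of which passed in either fit.

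**Figure D4:**
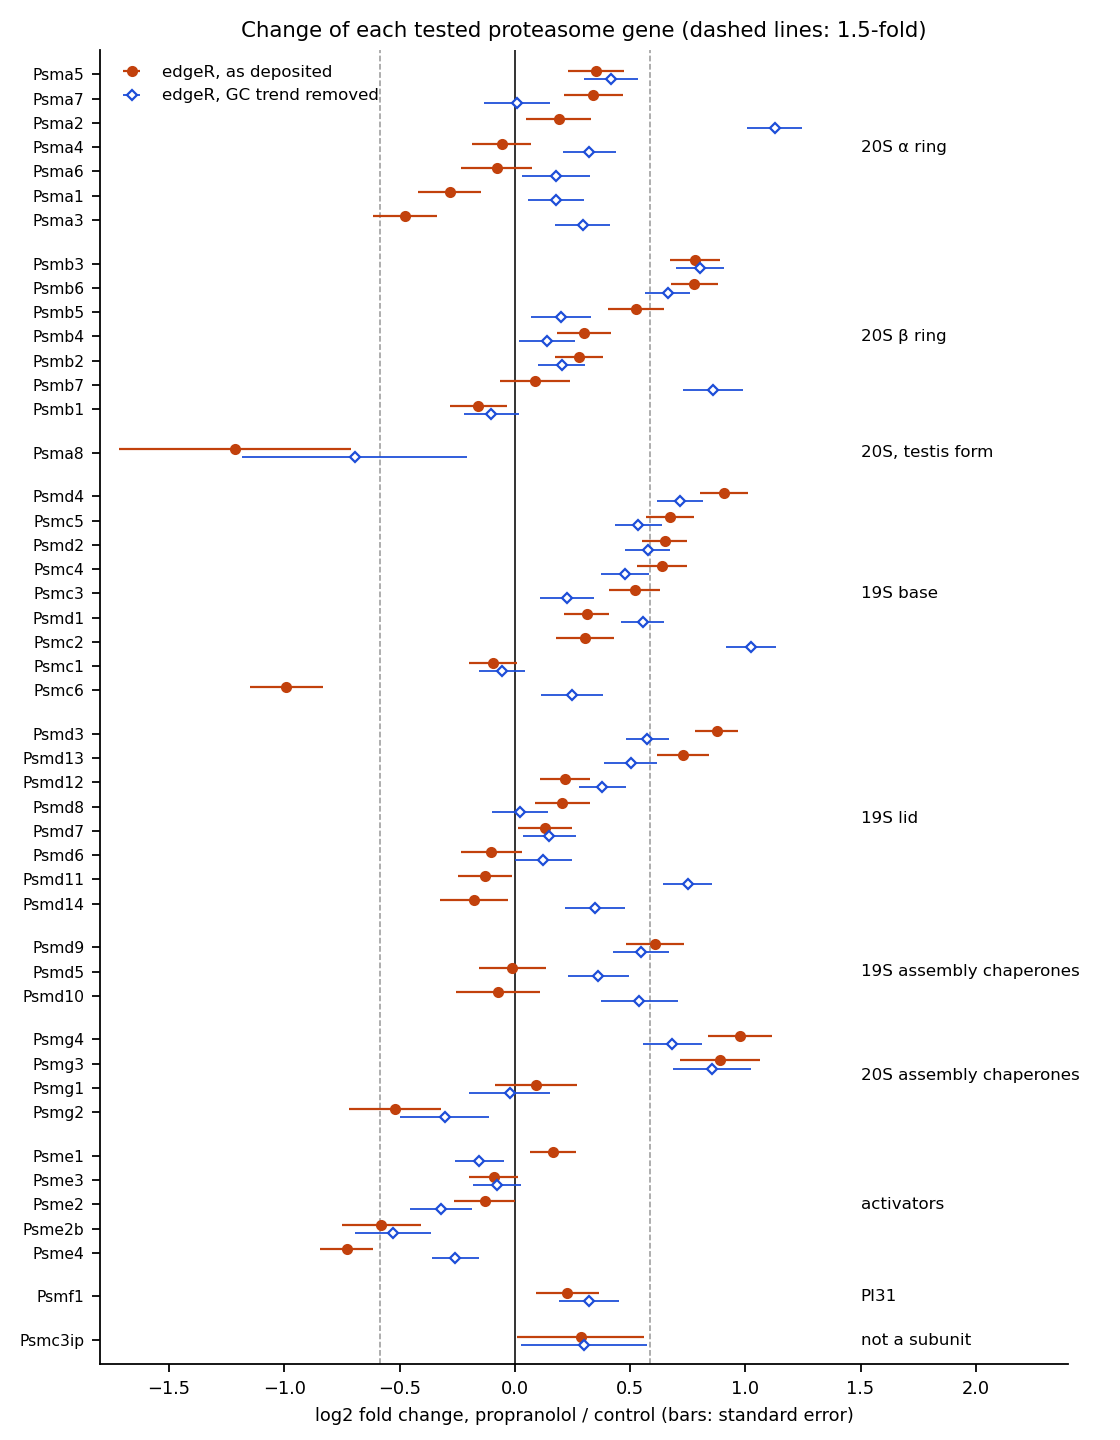
log2 fold change (propranolol over control) with its standard error for the 46 tested proteasome genes, grouped by role, in the edgeR test on the counts as deposited (orange circles) and after removal of the GC trend (open blue diamonds). Dashed lines mark a change of 1.5-fold in either direction. Psmb3, Psmb6, Psmd4, Psmg3 and Psmg4 lie past the upper line in both fits, Psma2, Psmb7, Psmc2 and Psmd11 past it only after the removal, and Psmc6 and Psme4 lie past the lower line only before it.

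Genes around the proteasome were taken from lists of partners, regulators and ubiquitin genes. Of 10 partner genes, 2 were changed upward (12.2% of all tested genes) and 3 downward (15.6%), and 7 passed downward (20.4%). Adrm1, a ubiquitin receptor of the 19S cap, had 57.8 and 56.7 CPM in the control and 91.3 and 87.2 CPM in the propranolol libraries (log2 fold change 0.64, standard error 0.10, edgeR adjusted p = 0.000982). Sem1, the smallest subunit of the lid, had 109 and 98.0 CPM in the control and 186 and 153 CPM in the propranolol libraries (log2 fold change 0.72, standard error 0.12, edgeR adjusted p = 0.00114). Both deubiquitinases that bind the cap reversibly were lower in the counts as deposited, though positive once the GC trend was taken out. Usp14 had 59.0 and 54.4 CPM in the control and 39.2 and 33.6 CPM in the propranolol libraries (log2 fold change -0.63, standard error 0.12, edgeR adjusted p = 0.00278), with -0.52 and -0.50, under 1.5-fold, without control replicate 1 and propranolol replicate 2, and 0.33 after the removal. Uchl5 had 34.9 and 32.5 CPM in the control and 24.7 and 12.2 CPM in the propranolol libraries (log2 fold change -0.83, standard error 0.25, edgeR adjusted p = 0.0231), with -1.46 when propranolol replicate 1 and -0.42 when replicate 2 was left out, and 0.12 after the removal. Txnl1, a thioredoxin-like protein bound to the cap, had 70.9 and 66.4 CPM in the control and 38.5 and 25.3 CPM in the propranolol libraries (log2 fold change -1.09, standard error 0.17, edgeR adjusted p = 0.000939), and -0.14 after the removal, where it did not pass. The scaffold gene Ecpas passed downward under 1.5-fold (-0.50). Of the 7 partner genes that passed downward, 0 did so by edgeR after the removal, where 6.55% of all tested genes did. At an unadjusted p under 0.05 there was 1 downward, and DESeq2 was not run in this form. After the removal 3 of the 10 partner genes passed upward (17.5% of all tested genes), 1 of them by more than 1.5-fold (7.64%). Ecpas then had -0.049, Pomp -0.39, Akirin2 -0.23 and Ube3c -0.21, and Adrm1 passed under 1.5-fold (0.34). Sem1 was the partner gene with the highest log2 fold change after the removal (1.29), and it was changed upward in both fits, but in the counts as deposited was under 1.5-fold without propranolol replicate 1 (0.57).

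Among 6 genes that control proteasome gene expression, 1 was changed upward (12.2% of all tested genes) and 1 downward (15.6%). Nfe2l1, the transcription factor that raises proteasome genes when proteolysis is impaired, had 193 and 181 CPM in the control and 218 and 206 CPM in the propranolol libraries and did not pass (log2 fold change 0.18, standard error 0.10, edgeR adjusted p = 0.150), with -0.086 once the GC trend was taken out. In the counts as deposited its processing enzymes had log2 fold changes of either sign, and their differences were not tested. Syvn1, an endoplasmic reticulum ubiquitin ligase that targets it, had 47.2 and 53.7 CPM in the control and 83.4 and 91.6 CPM in the propranolol libraries (log2 fold change 0.79, standard error 0.12, edgeR adjusted p = 0.000614), and passed under 1.5-fold after the removal (0.46). Ngly1, which removes its sugars, had 26.3 and 22.0 CPM in the control and 17.1 and 13.6 CPM in the propranolol libraries (log2 fold change -0.64, standard error 0.17, edgeR adjusted p = 0.0125), and did not pass without control replicate 1 (-0.46) or propranolol replicate 2 (-0.47) or after the removal (0.057). Vcp, the segregase that extracts it from the membrane, passed upward under 1.5-fold (0.54, and 0.55 after the removal). Ddi2, another gene of this list, did not pass (-0.21, edgeR adjusted p = 0.106, and -0.088 after the removal). Nfe2l2, the related factor of the oxidative stress response, passed downward under 1.5-fold (-0.41), and did not pass without control replicate 2 (-0.33) or propranolol replicate 2 (-0.30) or after the removal (-0.16).

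Of 15 genes of ubiquitin and its shuttle factors, 2 were changed upward (12.2% of all tested genes) and 2 downward (15.6%), near the shares of all tested genes. Uba1, the main ubiquitin-activating enzyme, had 433 and 421 CPM in the control and 686 and 639 CPM in the propranolol libraries (log2 fold change 0.63, standard error 0.09, edgeR adjusted p = 0.000588), and was under 1.5-fold without propranolol replicate 1 (0.58) and once the GC trend was taken out (0.49). Zfand2b, a gene of the same list, had 19.5 and 18.6 CPM in the control and 33.1 and 33.8 CPM in the propranolol libraries (log2 fold change 0.81, standard error 0.13, edgeR adjusted p = 0.000930), and 0.49 once the GC trend was taken out. The second ubiquitin-activating enzyme, Uba6, had 24.7 and 23.4 CPM in the control and 12.8 and 10.3 CPM in the propranolol libraries (log2 fold change -1.04, standard error 0.17, edgeR adjusted p = 0.000916), and 0.14 once the GC trend was taken out. Zfand5, a ubiquitin-binding activator of the proteasome, had 103 and 105 CPM in the control and 54.8 and 51.7 CPM in the propranolol libraries (log2 fold change -0.97, standard error 0.10, edgeR adjusted p = 0.000164), and -0.076 after the removal.

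Markers of other cell types moved between the groups as well. For the counts below, 21.8% of all tested genes passed upward and 20.4% downward. Of 10 T cell genes 9 passed downward, with a summed level of 237 and 279 CPM in the control and 114 and 63.0 CPM in the propranolol libraries and Cd8a as the most abundant. All 8 NK cell genes passed downward, from 115 and 120.3 to 46.8 and 23.2 CPM, led by Prf1. Of 7 tested neutrophil genes 6 passed upward, from 179.8 and 198 to 355 and 381 CPM, led by Csf3r. Macrophage genes, which include those of the sorted markers, were far more abundant. The 11 of the list summed to 23033 and 22081 CPM in the control and 28883 and 26112 CPM in the propranolol libraries, with 7 passed upward and Lyz2 the most abundant. Of 10 genes of fibroblasts and fibrosarcoma cells 7 passed downward and 1, Fn1, upward, and their sum was 5141 and 3188 CPM in the control and 4932 and 4403 CPM in the propranolol libraries. Of 8 proliferation genes 4 passed downward and 1 upward, with sums of 890.3 and 885 CPM in the control and 699 and 629.5 CPM in the propranolol libraries. The smaller lists of B cell (3 of 6 genes tested), dendritic cell (7 of 7) and endothelial genes (5 of 7) summed to at most 196, 33.0 and 63.0 CPM in any library, led by Ighm, Ccr7 and Pecam1. In these 3 lists 1, 3 and 0 genes passed downward and 1, 0 and 1 upward. No marker was at 0 in all 4 libraries. The part of these cells in the proteasome values was not tested. The sums of the T cell and NK cell lists, like the levels of 45 of the 46 proteasome genes, were lower in propranolol replicate 2 than in replicate 1. So were those of the macrophage, dendritic cell, fibroblast, endothelial and proliferation lists, while the neutrophil and B cell sums were higher. In the control group the T cell and NK cell sums were higher in replicate 2, where 35 of the 46 proteasome genes were lower.

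Promoter sequence was taken from RefSeq (GRCm38.p6), as the 250 bases before and 50 bases after each gene start, and 39 of the 47 genes had an entry. Not matched were Psma8, Psmb1, Psmb2, Psmb7, Psmc3, Psmd3, Psmd7 and Psmg2. The core of the antioxidant response element, the site of the factors encoded by Nfe2l1 and Nfe2l2, was searched on both strands as TGACNNNGC. It was present in 6 of the 39 genes (15.4%), against 13.99% of 27025 genes with a promoter. The CCAAT box, searched as CCAAT on both strands, was present in 14 of the 39 (35.9%), against 41.1% of all. The first share was close to that of all genes with a promoter and the second below it, and a match is a description of letters and not of binding. The 6 matches are shown with their surroundings, because in the counts as deposited they include genes changed in either direction. Each line reads 5′ to 3′ on the strand of the gene, and capitals mark the match or its reverse complement.
Psmb5: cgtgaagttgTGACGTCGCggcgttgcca
Psmb6: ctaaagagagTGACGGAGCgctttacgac
Psmd9: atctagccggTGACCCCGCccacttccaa
Psmd12: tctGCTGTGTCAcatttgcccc
Psmc6: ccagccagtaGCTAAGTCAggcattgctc
Psme4: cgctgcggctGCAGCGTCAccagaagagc
In Psmb5, Psmb6 and Psmd9, the match lay on the strand of the gene, with its leftmost letter 47, 9 and 31 bases before the start. In Psmc6, Psme4 and Psmd12 it lay on the opposite strand, with its leftmost letter as shown 227, 7 and 247 bases before the start.

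Whole promoters are shown for the catalytic gene that was changed upward in both fits and for the genes of the 19S base with the highest and lowest log2 fold change in the counts as deposited, with capitals for the element above. The promoter of Psmb6 lies at chr11:70525107-70525406 on the forward strand, that of Psmd4 at chr3:95042565-95042864 on the reverse strand and that of Psmc6 at chr14:45329574-45329873 on the forward strand.
Psmb6: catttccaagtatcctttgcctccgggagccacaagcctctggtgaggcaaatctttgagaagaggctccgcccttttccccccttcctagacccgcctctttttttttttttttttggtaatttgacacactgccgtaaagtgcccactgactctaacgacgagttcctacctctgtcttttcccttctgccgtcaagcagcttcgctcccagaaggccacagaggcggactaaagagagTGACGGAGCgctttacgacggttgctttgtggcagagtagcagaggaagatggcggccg
Psmd4: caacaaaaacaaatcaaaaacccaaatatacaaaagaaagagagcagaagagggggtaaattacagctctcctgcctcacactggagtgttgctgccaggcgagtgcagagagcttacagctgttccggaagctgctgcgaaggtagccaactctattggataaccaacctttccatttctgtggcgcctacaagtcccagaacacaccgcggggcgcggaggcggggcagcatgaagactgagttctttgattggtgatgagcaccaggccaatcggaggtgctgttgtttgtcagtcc
Psmc6: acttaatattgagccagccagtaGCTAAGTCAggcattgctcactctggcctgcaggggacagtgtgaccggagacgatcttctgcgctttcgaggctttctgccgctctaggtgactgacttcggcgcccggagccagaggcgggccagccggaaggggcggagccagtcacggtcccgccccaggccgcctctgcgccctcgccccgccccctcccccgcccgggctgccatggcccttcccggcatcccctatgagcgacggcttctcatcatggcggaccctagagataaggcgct
The promoter of Psmd4 holds no TGACNNNGC but 3 CCAAT boxes, and those of Psmb6 and Psmc6 hold none of the latter.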

How the data were processed

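The authors deposited raw counts, 1 whole number of fragments for each gene and library. Per the methods and the submitters' processing notes, reads were aligned to mm10 with STAR 2.7.1a, alignments of high mapping quality were kept with SAMtools 1.9, and exons of a GENCODE annotation were counted with featureCounts 1.6.4 for paired reads. The mapping filter removes reads that fit several places, which lowers the counts of near-identical copies such as Psme2b. The release and the strand option are not given in the sources used here. Matrix columns were matched to libraries by the number in the labels, and 0 columns were left out.

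Genes were matched to GENCODE M21. With R 4.3.3 and edgeR 4.0.16, libraries were scaled by TMM factors (1.08, 1.09, 0.914 and 0.931 in the order control replicates 1 and 2, propranolol replicates 1 and 2), genes were filtered with filterByExpr at a minimum count of 10, and the groups were compared with the quasi-likelihood test without covariates and Benjamini-Hochberg adjustment over 14688 genes. Replicates of a group differed by more than sampling noise (chi-square per degree of freedom 7.56 and 9.83). TPM were computed from counts and exon length, without TMM factors. For the GC trend, the log2 CPM of each library (prior count 2) minus the mean over libraries was fitted on the GC content of the longest transcript with a natural spline (5 degrees of freedom), and the fit was subtracted through offsets. DESeq2 1.42.0 and limma 3.58.1 were alternatives. The depth of the libraries, between 13798249 and 39818103 counts, sets the precision of low genes. The steps were tested on simulated data. The proteasome genes and all lists were chosen with earlier results of these data known. Values in each library are given for the catalytic genes, every changed gene, the highest and lowest log2 fold change of each subcomplex, Psmf1, Pomp, Adrm1, Nfe2l1, Usp14, Uchl5, the inducible catalytic genes and changed pathway genes. Other genes were named after their values were seen. Paaf1, a listed partner gene, was not analysed here. Some genes of the ubiquitin list are not reported here and were left out of its counts. The authors' own comparisons were not used.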

Additional observations from a re-analysis of the deposited data

How the results depend on the processing

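All proteasome counts are out of the tested genes of the 47. After removal of the GC trend, 1122 genes of all were changed upward and 733 downward, and of the proteasome genes 0 were changed downward, 1 passed downward and the cap median was 0.48 (with the replicate block as well, 1181, 947, 0, 3 and 0.47). With the trend removed and the block added, calls were gained by Psme4 (-0.26, edgeR adjusted p = 0.0444), Psme2 (-0.34, 0.0240) and Pomp (-0.40, 0.00574) downward and by Psmb8 (0.29, 0.0265), Psmd14 (0.33, 0.0256) and Usp14 (0.32, 0.0289) upward. With a log2 fold change above 1.5 required, 61 genes were higher and 667 lower, and 0 proteasome genes in either direction by edgeR, whose calls without that minimum were 15 higher and 4 lower. With no fold minimum 3205 genes were higher, and 4 proteasome genes lower. With the replicate number as a block, 1867 genes of all were changed upward and 2495 downward, 4 proteasome genes were changed downward (17% of all tested genes), 7 passed downward (23.4%) and 19 passed upward (24.9%). No call named above was lost. Psma8 (-1.33, edgeR adjusted p = 0.0329) and Psme2b (-0.61, 0.00504) were also changed downward. Among the proteasome genes that passed only with the block were Psmg2 (-0.54, 0.0226), Psma1 (-0.30, 0.0135), Psma7 (0.33, 0.0109) and Psmc2 (0.29, 0.0143), and not all that gained a call upward are named here. Deviations of same-numbered libraries had a correlation of 0.169 over genes, but with 2 pairs the libraries share only a number.

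Each library was left out in turn, on the assumption that the remaining one of its group varied as the other group did. Then 1837 to 2119 genes of all were higher and 1664 to 2305 lower, 9 to 13 proteasome genes were changed upward and 1 to 6 downward, 13 to 24 passed upward and 2 to 11 downward, the core median was 0.040 to 0.41, the cap median 0.14 to 0.39, their difference -0.096 to 0.020, and the core to cap ratio differed between groups by -0.16 to -0.078.

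Besides Psma4, Psma6, Psmd5, Psmd6 and Psmg1, given above, the sign of these log2 fold changes turned, and the cause was not tested apart from the construction of each alternative. Without the GC trend (and, in parentheses, with the block too) values were 0.25 (0.23) for Psmc6, 0.29 (0.28) for Psma3, 0.35 (0.33) for Psmd14, 0.54 (0.52) for Psmd10, -0.15 (-0.16) for Psme1, -0.086 (-0.088) for Nfe2l1, 0.33 (0.32) for Usp14, 0.12 (0.042) for Uchl5, 0.057 (0.044) for Ngly1, 0.14 (0.13) for Uba6, 0.18 (0.17) for Psma1, 0.75 (0.75) for Psmd11, and for Psma7 the value was -0.011 only where the trend was removed and the block added together. With a library left out, values ranged from -0.19 to 0.34 for Psmb7, -0.34 to 0.031 for Psmb1, -0.44 to 0.062 for Psmd14, -0.35 to 0.17 for Psmd10, -0.051 to 0.42 for Psma2, -0.21 to 0.024 for Psmd11, -0.35 to 0.089 for Psme2 and -0.20 to 0.036 for Psme3. Without a filter on low counts Psmd10 had 0.0015. All 13 changed proteasome genes stayed changed with DESeq2, DESeq2 size factors, limma-voom, no filter, a stricter filter (CPM of 1 or more throughout a group) and the block, and 11 with upper-quartile factors, which lost Psmc4 and Psmd9. The length alternative for TPM was added after the data were seen.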
